A study of Mus musculus with 6 samples.

Results

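The GABA and glycine synapse genes are a set of 27 genes picked by symbol for their place at inhibitory synapses, out of 24411 genes in the count table. All 27 were found, and all 27 had enough counts to be tested among the 13919 genes tested. RNA was sequenced from mouse primary cortical neuron cultures in 2 groups of 3 libraries. The first group received preformed fibrils of mouse α-synuclein (PFF), aggregates of the protein assembled outside the cell, at 3.45 µM on day 10 in vitro. The second received phosphate-buffered saline (PBS). Both groups were cultured from the cortex of embryos at day 18 and taken for RNA on day 18 in vitro. The labels name neither a strain nor a genotype, do not state that each library is a culture of its own, and give PBS as the only control. The p-values therefore measure only the spread between these libraries, which may be technical.

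GABA is the main fast inhibitory transmitter of the cortex. It is made from glutamate by glutamate decarboxylases, loaded into vesicles, and acts on GABA-A receptors, which are chloride channels of mixed subunits, and on GABA-B receptors, which couple to G proteins. Glycine receptors are related chloride channels held at synapses by the scaffold protein gephyrin, as are many GABA-A receptors. Whether opening these channels inhibits a neuron depends on chloride transporters that set the chloride level inside the cell.

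Changes were small, and most of these genes did not pass the test. At an adjusted p under 0.05 in edgeR's quasi-likelihood test across all genes, 3 of the 27 members rose after PFF: Slc12a5, Gabbr2 and Gabra4. One member, Iqsec3, fell. The members called higher were 11.1% of the set, and 3.98% of all genes tested were called higher. The member called lower was 3.7% of the set, beside 2.6% of all genes. In either direction, 4 members were called, beside 6.58% of all genes. Before adjustment 9 members had a p under 0.05 (2944 of all genes did), and 20 of the 27 had a positive log2 fold change, against 49.9% of all genes. The median log2 fold change of the members was 0.11, and of all genes −0.00056. The members' changes ran from −0.27 to 0.42 on the log2 scale.

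**Figure D1:**
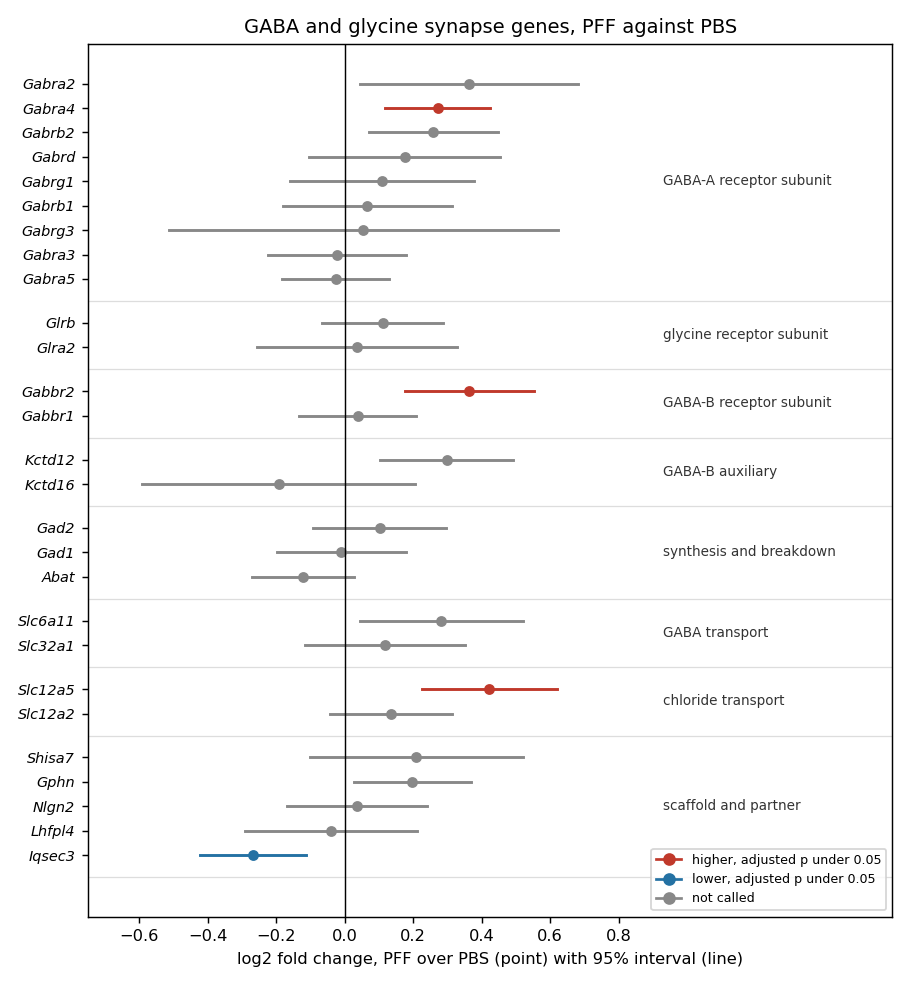
Log2 fold change of PFF over PBS for each of the 27 members (points) with its 95% interval (lines), grouped by role. Slc12a5, Gabbr2 and Gabra4 lie above 0 and Iqsec3 below 0 with an adjusted p under 0.05; grey members did not pass.

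The promoter stretches of the 4 called genes are given here so that the letters in front of the changed transcripts can be read. They come from RefSeq on GRCm38.p6, the assembly named mm10, and hold at most 250 bases before an annotated start, less any bases that GENCODE vM21 places in an exon. Each is written 5′ to 3′ on the gene's own strand. Capitals mark a match, on either strand, to one of 3 motifs: the cAMP response element TGACGTCA, the EGR site GCGNGGGCG and the E-box CACGTG.
Slc12a5, first start, chr2:164960596-164960801, plus strand: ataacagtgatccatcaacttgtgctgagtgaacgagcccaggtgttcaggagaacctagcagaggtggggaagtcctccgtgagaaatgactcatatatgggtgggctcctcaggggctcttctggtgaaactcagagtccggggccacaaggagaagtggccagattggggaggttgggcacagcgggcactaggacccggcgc
Slc12a5, second start, chr2:164967738-164967982, plus strand: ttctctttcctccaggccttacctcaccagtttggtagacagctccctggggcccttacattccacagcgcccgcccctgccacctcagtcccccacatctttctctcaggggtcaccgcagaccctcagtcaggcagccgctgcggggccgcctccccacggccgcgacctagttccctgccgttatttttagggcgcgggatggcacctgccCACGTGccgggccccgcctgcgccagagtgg
Gabbr2, chr4:46991874-46991964, minus strand: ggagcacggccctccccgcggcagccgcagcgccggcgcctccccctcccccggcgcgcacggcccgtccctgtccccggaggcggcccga
Gabra4, chr5:71658364-71658558, minus strand: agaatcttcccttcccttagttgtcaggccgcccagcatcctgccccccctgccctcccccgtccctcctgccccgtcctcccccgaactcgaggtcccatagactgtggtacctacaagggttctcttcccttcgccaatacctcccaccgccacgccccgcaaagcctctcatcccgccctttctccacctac
Iqsec3, chr6:121473679-121473928, minus strand: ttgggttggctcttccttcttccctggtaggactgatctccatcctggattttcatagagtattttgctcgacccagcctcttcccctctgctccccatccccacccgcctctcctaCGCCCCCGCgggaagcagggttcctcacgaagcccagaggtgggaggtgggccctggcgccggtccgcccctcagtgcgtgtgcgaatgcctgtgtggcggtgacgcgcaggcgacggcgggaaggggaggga

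No motif of the 3 was found before more than 1 of the called genes. An E-box stands before the second start of Slc12a5, and 6.02% of all 32851 promoter windows of 250 bases hold one. An EGR site stands before Iqsec3, as in 4.7% of all windows. Among the 28 windows of members, which cover 23 of the 27 genes, the EGR site was also found for Gabrb2 and Lhfpl4, and the cAMP response element, held by 1.55% of all windows, for no member. The windows of members were rich in G and C, with a median of 62.4% against 52.4% over all windows. The motifs were chosen after the members' values were seen, and a match is a description of the letters only. Gabra4 and Gabrb1 start from opposite strands on chromosome 5, and GENCODE exons of the 2 genes overlap over 0.756% of the exonic bases of Gabra4.

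Slc12a5, which encodes the neuronal potassium-chloride exporter KCC2, had the smallest p of the members. The gene lies at chr2:164960802-164999731 on the plus strand (GRCm38). It measured 139.6, 161.2 and 144.8 CPM (counts scaled to a common library total after TMM normalisation) in PFF replicates 1 to 3, against 96.4, 115 and 120.8 CPM in PBS. Every PFF library was above every PBS library. The means were 148.5 ± 11.3 CPM in PFF and 110.7 ± 12.7 CPM in PBS (SD, n = 3 each), a log2 fold change of 0.42 ± 0.09 (SE), or 34.1%, with an adjusted p of 0.0134 in edgeR. The call was lost without PFF 2 (adjusted p = 0.0954 in edgeR) or without PBS 1 (0.0827), the highest PFF and the lowest PBS library.

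Slc12a2, the gene of the chloride importer NKCC1, works against KCC2 and did not pass. Its level was 55.1, 51.9 and 50.6 CPM in PFF and 44.8, 50.5 and 48.1 CPM in PBS, a log2 fold change of 0.14 with a 95% interval from −0.04 to 0.31. These groups did not overlap either, though PFF 3 and PBS 2 were 50.6 and 50.5 CPM. The count ratio of Slc12a5 to Slc12a2 was 2.53, 3.11 and 2.86 in PFF and 2.15, 2.28 and 2.51 in PBS. Each PFF ratio lay above each PBS ratio, by 0.29 on the log2 scale on average. This pair and the 3 other ratios given here were picked after the values were seen, so they are descriptions only. With 3 libraries a group, an exact permutation test cannot give a p under 0.1, so it cannot decide. Its p was 0.3 for Gad2 to Gad1 and 0.1 for each of the others (adjusted p = 0.3 and 0.133 in that test).

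GABA-A receptor subunits assemble as pentamers of mostly α, β and γ or δ subunits, and the α subunit sets much of a receptor's place in the cell and its drug response. Of the 9 subunit genes in the set, 1 rose (11.1%, beside 3.98% of all genes tested) and none fell (beside 2.6%). A positive log2 fold change was found for 7 (77.8%, beside 49.9% of all genes). Gabra4, at chr5:71569749-71658308 on the minus strand, encodes the α4 subunit, common in receptors outside synapses. It measured 138.2, 142 and 139.4 CPM in PFF and 108.8, 118.7 and 119.8 CPM in PBS. The PFF libraries were close together and all above the PBS libraries. The difference was 0.27 ± 0.07 on the log2 scale, or 20.7%, with an adjusted p of 0.0369 in edgeR. It did not pass without PFF 1, PFF 2, PBS 1 or PBS 2, where the adjusted p in edgeR ran from 0.0938 to 0.185.

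Gabrb2, the gene of the β2 subunit, did not pass. Its values were 179.1, 189.3 and 160 CPM in PFF, against 132.3, 154.8 and 154.2 CPM in PBS. The groups did not overlap, but PFF 3 was close to PBS 2 and PBS 3. The log2 fold change was 0.26 ± 0.09 (adjusted p = 0.101 in edgeR), and 0.36 in replicates 1 and 2 only (adjusted p = 0.00107 in edgeR). Gabra2, the α2 subunit of synapses on the cell body and initial axon, had a larger but more variable change of 0.36 ± 0.15 (adjusted p = 0.178 in edgeR). PFF 3 and PFF 1, at 24.5 and 26.2 CPM, were not above PBS 2 at 26.5 CPM. Its log2 fold change was 0.19 without PFF 2 and 0.51 without PBS 2, and it passed without PFF 3 (0.46, adjusted p = 0.0485 in edgeR).

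The other GABA-A subunit genes did not pass either. Gabra5, the α5 subunit of extrasynaptic receptors, measured 126.2, 134.6 and 123.4 CPM in PFF and 124.3, 136.3 and 130.6 CPM in PBS. Its groups overlapped, and the interval of the log2 fold change ran from −0.18 to 0.13. Gabra3 had an interval from −0.22 to 0.18, Gabrb1 from −0.18 to 0.31, Gabrg1 from −0.16 to 0.38 and Gabrd, the δ subunit, from −0.10 to 0.45. Gabrg3, at 2.18 to 3.57 CPM in PFF and 2.17 to 3.08 CPM in PBS, had the widest interval of the 9 genes, from −0.51 to 0.62. The count ratio of Gabra4 to Gabra5 was 1.1, 1.05 and 1.13 in PFF against 0.875, 0.871 and 0.917 in PBS. Each PFF ratio was above each PBS ratio. The mean difference of this ratio was 0.30 on the log2 scale, and the pair sets the called subunit against the one with the lowest log2 fold change.

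**Figure D2:**
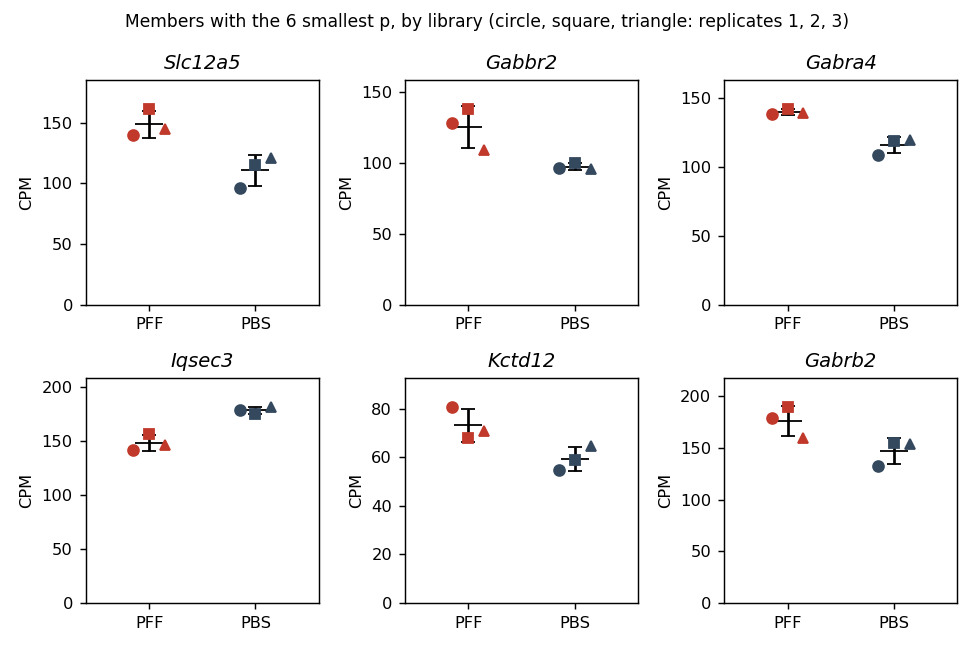
CPM per library for the members with the 6 smallest p, PFF (red) left of PBS (dark), with symbols for the replicate number and black bars for the mean and SD. In 5 panels the PFF libraries all lie above the PBS libraries, and in the panel of Iqsec3 they all lie below.

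Set by gene length, the same subunits led in both groups. In CPM per kb of merged GENCODE exons, a level, Gabra5 was highest among the GABA-A genes at 43.1 ± 1.96 in PFF and 43.8 ± 2.02 in PBS (SD, n = 3 each). Gabrb2 followed at 27.7 ± 2.34 in PFF and 23.1 ± 2.02 in PBS, and Gabra4 at 23.0 ± 0.319 in PFF and 19.0 ± 0.996 in PBS. Below these came Gabra3, at 14.4 ± 0.949 in PFF and 14.6 ± 1.59 in PBS. A gap separated these 4 from Gabrd, Gabra2, Gabrg1 and Gabrb1, whose means per kb ran from 2.21 to 4.64 in PFF and from 2.1 to 4.1 in PBS. Within each library, Gabrd was above Gabra2, and Gabrg1 was above Gabrb1. Gabra2 was above Gabrg1 except in PBS 3, at 2.76 against 3.13, so the order of these genes in PBS is not settled. Gabrg3 was lowest, at 0.223 ± 0.0655 in PFF and 0.214 ± 0.0395 in PBS. The exons of all isoforms were merged, which lowers the level per kb of genes with long alternative ends. Summed over the 9 genes, the GABA-A level was 588.2, 634.6 and 572.4 CPM in PFF and 494.5, 554.3 and 563 CPM in PBS, which was not tested.

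**Figure D3:**
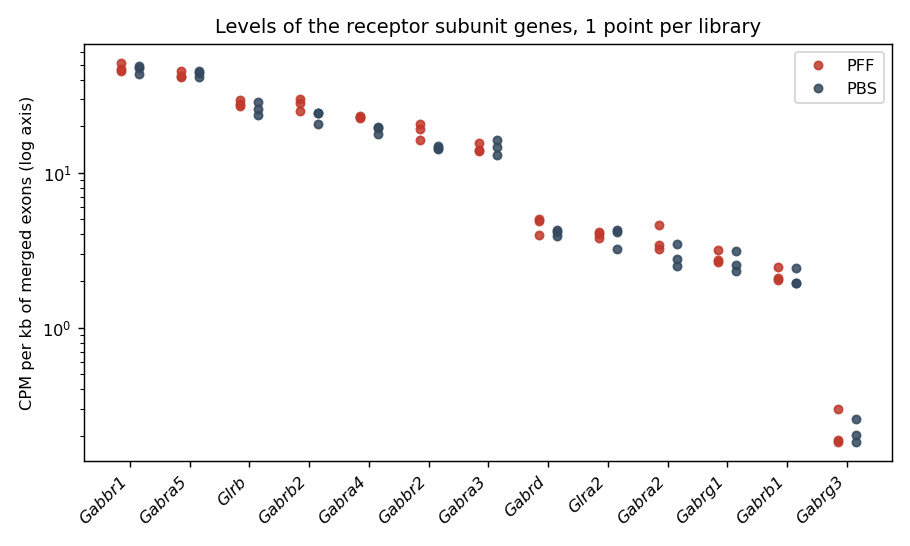
CPM per kb of merged exons on a log axis for the 13 receptor subunit genes, 1 point per library, PFF (red) left of PBS (dark), in order of the mean. Gabbr1 and Gabra5 are highest and Gabrg3 is lowest in both groups.

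The GABA-B receptor is a pair of unlike subunits: GABBR1 binds GABA, and GABBR2 brings it to the surface and couples to the G protein. Gabbr2 rose and Gabbr1 did not pass. Gabbr2, at chr4:46662305-46991873 on the minus strand, measured 128.5, 138 and 108.8 CPM in PFF, against 96.1, 100 and 95.7 CPM in PBS. PFF 3 was the lowest of its group and still above every PBS library. The log2 fold change was 0.36 ± 0.09, or 28.7%, with an adjusted p of 0.0251 in edgeR. Only without PFF 3 did the call hold when 1 library was left out; the adjusted p in edgeR was between 0.0574 and 0.159 otherwise.

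Gabbr1 measured 364.4, 398.1 and 354.8 CPM in PFF and 338.5, 369.8 and 379.7 CPM in PBS. The groups overlapped, and the interval of the log2 fold change ran from −0.13 to 0.21. The count ratio of Gabbr2 to Gabbr1 was 0.353, 0.347 and 0.307 in PFF against 0.284, 0.27 and 0.252 in PBS. Within a library, Gabbr2 was thus higher relative to Gabbr1 in all PFF libraries, by 0.32 on the log2 scale.

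KCTD proteins bind GABA-B receptors and shape the time course of their response. Kctd12 measured 80.5, 67.9 and 70.8 CPM in PFF, against 54.6, 59.0 and 64.5 CPM in PBS. The groups did not overlap, but the change of 0.30 ± 0.09 on the log2 scale did not pass (adjusted p = 0.0694 in edgeR). Without a low-count filter it did (0.0464), as in replicates 1 and 2 only (0.00289). Of the exonic bases of Kctd12, 62.8% lie inside a gene model on the opposite strand, and the strand setting of the counting is not given, so this count is uncertain. Kctd16 had a mean of 7.83 ± 1.97 CPM in PFF and 8.94 ± 1.28 CPM in PBS, with an interval from −0.59 to 0.21, and 10.4% of its exonic bases lie inside a gene model on the opposite strand.

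**Figure D4:**
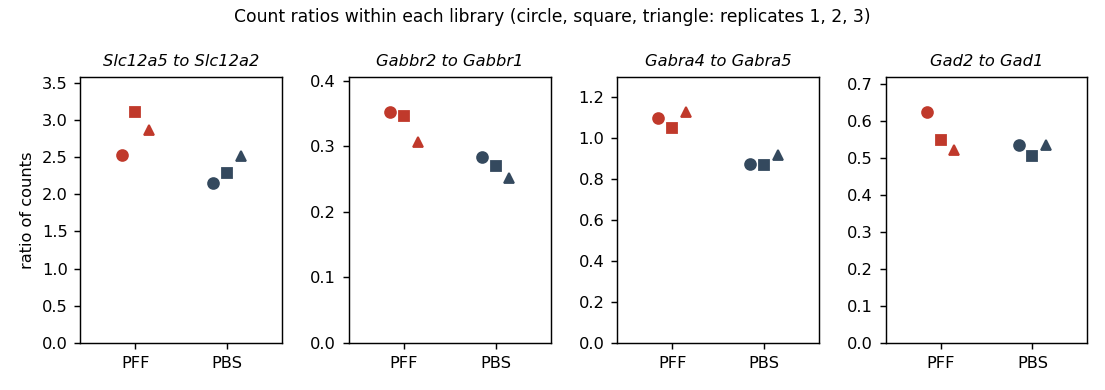
Ratio of the counts of 2 members within each library, PFF (red) left of PBS (dark), with symbols for the replicate number. The first 3 ratios are higher in every PFF library than in any PBS library, and those of Gad2 to Gad1 overlap.

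No gene that makes, loads or clears GABA passed. Gad1, the decarboxylase GAD67 that makes most of a neuron's GABA, measured 295.4, 318 and 282.7 CPM in PFF and 281, 337.2 and 283.6 CPM in PBS. The highest and the lowest library were both PBS, and the interval of the log2 fold change ran from −0.20 to 0.18. Gad2, the synaptic decarboxylase GAD65, averaged 169.1 ± 19.1 CPM in PFF and 157.5 ± 11.1 CPM in PBS, with an interval from −0.09 to 0.30. The ratio of Gad2 to Gad1 was 0.625, 0.55 and 0.522 in PFF and 0.535, 0.505 and 0.535 in PBS, and the groups overlapped. Slc32a1, the vesicular transporter VGAT, averaged 49.0 ± 2.85 CPM in PFF and 45.1 ± 7.18 CPM in PBS, with an interval from −0.11 to 0.35. A gene model on the opposite strand covers 24.9% of its exonic bases.

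Abat, the transaminase that breaks GABA down, was lower in every PFF library, at 221.4, 220.5 and 222.8 CPM, than in any PBS library, at 247, 240.1 and 235.7 CPM. The change was small, −0.12 ± 0.07 on the log2 scale, and did not pass (adjusted p = 0.336 in edgeR). Slc6a11, the transporter GAT3, which in the cortex is found mainly in astrocytes, measured 89.5, 98.8 and 101.6 CPM in PFF against 69.3, 72.4 and 96.4 CPM in PBS. PBS 3 stood with the PFF libraries, and the log2 fold change of 0.28 ± 0.11 had an adjusted p of 0.162 in edgeR. In replicates 1 and 2 only it was 0.42 (adjusted p = 0.000323 in edgeR). The summed level of 11 astrocyte markers, of which none rose and 3 fell, was 3608, 3649 and 4608 CPM in PFF and 4415, 3727 and 4859 CPM in PBS. Gfap, the largest part of that sum, measured 1582, 1616 and 2312 CPM in PFF and 1813, 1426 and 1828 CPM in PBS. Of the 11 markers, 9 had a negative log2 fold change and 2, Gfap among them, a positive one. The highest library of the sum in each group was replicate 3, as for Slc6a11. The lowest PBS library differed: PBS 2 for the markers and PBS 1 for Slc6a11. The part of astrocyte levels in the result was not tested.

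Among scaffolds and partners, Iqsec3 fell. The gene, at chr6:121372933-121473678 on the minus strand, encodes an exchange factor for ARF GTPases that binds gephyrin at inhibitory synapses. Its values were 141.1, 156.1 and 146.2 CPM in PFF, against 178.5, 174.4 and 180.7 CPM in PBS. The PBS libraries were close together and all above the PFF libraries. The log2 fold change was −0.27 ± 0.07, or −16.9%, with an adjusted p of 0.0405 in edgeR. With scaling by library size only it did not pass (0.064), nor without any 1 library except PFF 3 (0.0775 to 0.161).

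The other scaffold and partner genes did not pass in the fit with group as the only term. Gphn, which encodes gephyrin, measured 88.1, 87.8 and 82.7 CPM in PFF, against 79.2, 77.8 and 68.7 CPM in PBS. Its groups did not overlap, with a log2 fold change of 0.20 ± 0.08 (adjusted p = 0.173 in edgeR). Nlgn2, the adhesion protein neuroligin 2 of inhibitory synapses, ranged from 239.6 to 319 CPM in PFF, which takes in the whole PBS range of 266.2 to 281.6 CPM. Lhfpl4, which links GABA-A receptors to neuroligin 2, had an interval from −0.29 to 0.21, and Shisa7, a GABA-A auxiliary subunit, from −0.10 to 0.52. For Shisa7 the replicate 3 libraries were lowest in both groups, at 70.3 CPM in PFF and 58.7 CPM in PBS. With replicate 3 as a batch term, Gphn (adjusted p = 0.0392 in edgeR) and Shisa7 (0.0296) passed, both higher in PFF. The labels name no such batch, and over all genes the term gave 1029 higher and 976 lower, against 554 and 362 without it. With 1 library left out neither gene passed, at an adjusted p in edgeR of 0.0818 to 0.434 for Gphn and 0.0973 to 0.82 for Shisa7.

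The glycine receptor genes did not pass. Glrb, the β subunit that binds gephyrin, averaged 130.6 ± 6.32 CPM in PFF and 120.9 ± 11.2 CPM in PBS, with an interval from −0.07 to 0.29. Glra2, the α2 subunit of the developing brain, averaged 12.5 ± 0.558 CPM in PFF and 12.2 ± 1.85 CPM in PBS, with an interval from −0.26 to 0.33. Per kb of exons Glrb was at 28.1 ± 1.36 CPM in PFF and 26.0 ± 2.41 CPM in PBS, and Glra2 at 3.98 ± 0.178 CPM in PFF and 3.87 ± 0.586 CPM in PBS. By this level per kb, Glrb was above Glra2 in every library.

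Counts and medians were taken for receptor subunits and for the other members apart. Of the 13 receptor subunits 2 rose, none fell and 11 had a positive log2 fold change, with a median log2 fold change of 0.11. Of the 14 genes of synthesis, transport, scaffolds and auxiliary proteins 1 rose, 1 fell and 9 had a positive log2 fold change, also with a median of 0.11. The medians moved apart in both directions when single libraries were left out. Receptor subunits were higher without PFF 1 (0.14, against 0.0584 for other members), PFF 2 (0.11 and 0.0907) or PBS 3 (0.20 and 0.0995). They were lower without PFF 3 (0.12 and 0.16), PBS 1 (0.020 and 0.041) or PBS 2 (0.081 and 0.15). With all libraries, single genes ranged from −0.03 to 0.36 for receptor subunits and from −0.27 to 0.42 for the others. The PFF libraries all exceeded the PBS libraries in 7 members (25.9%), beside 13.4% of all genes, and all fell short of them in 2 members (7.41%), beside 11.6% of all genes.

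**Figure D5:**
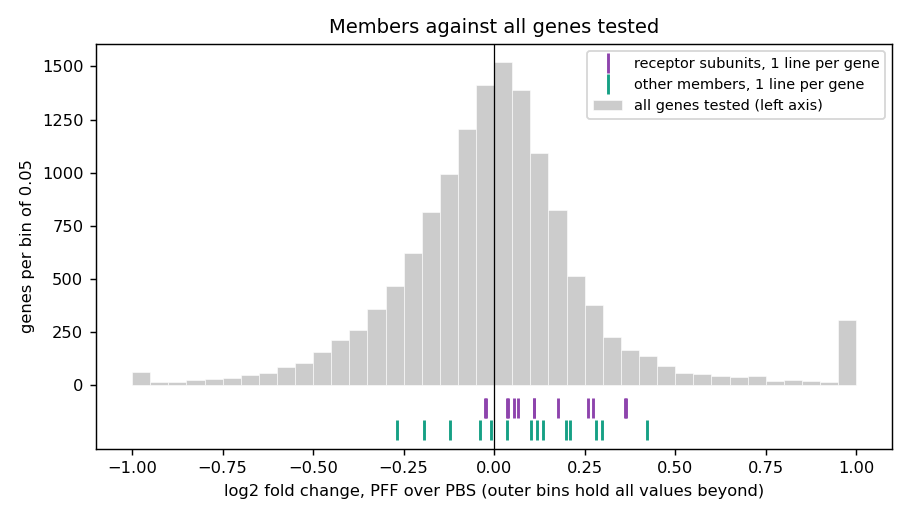
Log2 fold changes of all 13919 genes tested (grey bars, genes per bin of 0.05) and of the 13 receptor subunits and 14 other members (short lines below, 1 per gene). The medians of both member classes are 0.11, and the median of all genes is −0.00056.

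A wider list of 38 GABA and glycine genes outside the set held 24 with enough counts to be tested. Among them 1 rose (4.17%, beside 3.98% of all genes tested) and none fell (beside 2.6% of all genes). An unadjusted p under 0.05 was found for 10 of the 24, and for 2944 of the 13919 genes tested. A positive log2 fold change was found for 18 (75%, beside 49.9% of all genes), with a median of 0.12. The 14 genes not tested had at most 14 counts in any library.

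Markers of cell types moved in the same libraries. In bulk RNA, fewer cells of a type and less RNA per cell cannot be told apart. Of the 20 interneuron markers 3 fell and none rose: the neuropeptide genes Sst (−0.62 ± 0.09), Npy (−0.64 ± 0.08) and Vip (−0.79 ± 0.19). The summed level of all 20 ran from 258.9 to 265.2 CPM in PFF and from 296.7 to 298.2 CPM in PBS. Sst, Npy and Vip together were at 69.5 to 80.4 CPM in PFF and 111.6 to 122.5 CPM in PBS. The sums of the other 17 markers overlapped, at 178.5 to 195.7 CPM in PFF and 174.2 to 186.6 CPM in PBS. Among those 17, Cort was lower in every PFF library than in any PBS library (−0.64 ± 0.21, adjusted p = 0.0911 in edgeR). Sp9 was higher in every PFF library (0.70 ± 0.26, adjusted p = 0.142 in edgeR), and neither passed. The 20 markers had 10 positive and 10 negative log2 fold changes, with a median of −0.01. Gad1, Gad2 and Slc32a1 together were at 476.2 to 543 CPM in PFF and 468.7 to 554 CPM in PBS.

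Other neuronal markers had medians above 0. Of the 14 excitatory neuron markers 2 rose and none fell, with a median log2 fold change of 0.19, and of the 10 pan-neuronal markers 1 rose and none fell, with a median of 0.21. The summed excitatory level ran from 2388 to 2706 CPM in PFF and from 2690 to 2713 CPM in PBS. Camk2a, the largest part of that sum, was at 1252 to 1477 CPM in PFF and 1611 to 1673 CPM in PBS. Its log2 fold change was negative, as for 3 of the 14 excitatory markers, and 11 were positive. The pan-neuronal level ran from 5346 to 5998 CPM in PFF and from 5066 to 5503 CPM in PBS. Of 11 microglia and macrophage markers tested 10 rose and none fell, with sums of 417.9 to 525.9 CPM in PFF and 133.4 to 217 CPM in PBS. Of 11 oligodendrocyte lineage markers 4 rose and 7 fell, with sums of 885.5 to 1140 CPM in PFF and 895.4 to 1094 CPM in PBS. Those that rose were Mag, Mbp, Mobp and Mog. Those that fell were Pdgfra, Cspg4, Olig1, Olig2, Sox10, Bcas1 and Gpr17. The overlapping sums thus join shifts in opposite directions, with Mbp at 343.6 to 570.2 CPM in PFF and 167.5 to 204.1 CPM in PBS. No listed marker was at 0 in all libraries. The part of these shifts in the members' values was not tested.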

How the data were processed

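The authors deposited estimated counts for each gene with no scaling across libraries, and 8.69% of the values are not whole. The submitters' processing notes name STAR 2.7.9a, Trim Galore 0.6.6, DESeq2 1.38.3 and mm10, and per the labels' protocols the library kit marks strand. Which tool made the counts, with which annotation and strand setting, is not given in the sources used here.

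Counts were rounded, filtered with filterByExpr, normalised by TMM and tested with edgeR 4.0.16 (robust quasi-likelihood F-test, two-sided, group only, Benjamini-Hochberg over 13919 genes) in R 4.3.3. The SE is the log2 fold change divided by the square root of F. CPM are TMM-normalised, and the 95% intervals come from the test's degrees of freedom. Library totals were 9224974 to 10742383 counts, and members had 20 to 4066 counts per library. Values per library were shown for called members and for those with the 6 smallest p, and for others where a comparison needed them. The members and lists were chosen with earlier results of these data known, and the 4 ratios after their values were seen. Coordinates and exon overlaps are from GENCODE vM21 (GRCm38). The edgeR fit was tried on simulated counts in which every gene had the same dispersion. Recovery was required there only for changes larger than any seen in the members. Ratios, levels per kb and motif matches were not part of that trial. Called genes of the wider list were to be named, but are counted only and not reported by name here. Alternatives used DESeq2 1.42.0 and limma 3.58.1.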

Additional observations from a re-analysis of the deposited data

How the results depend on the processing

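The 4 calls held with DESeq2 size factors, upper quartile factors, both low-count filters, DESeq2, limma-voom and edgeR without robust estimation; with library size only, 0 members were lower, and Kctd12 joined the higher ones without a filter and at an adjusted p under 0.1. At that threshold 615 genes were lower over the table. The replicate numbers do not pair the libraries by the labels, and the deviations of same-numbered libraries correlated at 0.0919, 0.109 and 0.202. PFF 1 correlated better with PBS 2 (0.128) than with PBS 1. All other pairs of libraries with unlike numbers had negative correlations, from −0.207 to −0.00869. Deviations were taken from each group's mean, so a library's positive correlations force negative ones elsewhere. The negative signs therefore cannot decide on a pairing. With a replicate block 9 members rose (the 3 called higher, Kctd12, Gabrb2, Slc6a11, Gabra2, Gphn and Shisa7, the last 3 at adjusted p of 0.0109, 0.0499 and 0.0388 in edgeR), and over all genes 1043 rose and 954 fell. Replicate 3 as a batch term gave 8 members higher (1029 genes higher, 976 lower), and replicates 1 and 2 only gave 6 (1225 and 1169). Leaving out 1 library in turn gave 0 to 6 members higher and 0 to 1 lower, 312 to 871 genes higher and 100 to 987 lower (no member was called without PFF 2 or PBS 1, and the most, 6 higher and 1 lower, without PFF 3). The class medians then ran from 0.02 to 0.20 for receptor subunits and from 0.04 to 0.16 for other members.

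Directions turned for 11 members, none of them called. With library size only, Gad1 was at 0.0201, Gabra3 at 0.0088 and Gabra5 at 0.0035. In replicates 1 and 2 only, Gabra3 was at 0.0862, Gabra5 at 0.0062, Lhfpl4 at 0.12 and Kctd16 at 0.0164. With 1 library left out, the ranges were −0.10 to 0.0577 for Gabra3, −0.0635 to 0.0029 for Gabra5, −0.0572 to 0.0779 for Gad1, −0.12 to 0.12 for Lhfpl4, −0.22 to 0.21 for Gabrg3, −0.0240 to 0.19 for Gabrb1, −0.0119 to 0.0725 for Gabbr1, −0.0642 to 0.14 for Nlgn2, −0.0808 to 0.11 for Glra2 and −0.00092 to 0.22 for Slc32a1. The cause of these shifts was not tested. The ratios, whose alternatives were chosen after seeing the data, kept their direction: 0.22 to 0.37 for Slc12a5 to Slc12a2, 0.27 to 0.38 for Gabbr2 to Gabbr1, 0.28 to 0.33 for Gabra4 to Gabra5 and 0.03 to 0.16 for Gad2 to Gad1. Intervals cover the spread of 3 libraries a group, and for Gabrg3, at 20 to 37 counts, depth limits the precision.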
